A study of Mus musculus with 46 samples.

Results

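Intact liver and intact heart of the mouse were compared by their miRNA expression on 19 of the 46 arrays of a study of tissue storage and RNA integrity. An array was taken where the RNA integrity number (RIN), which falls from 10 to 1 as RNA breaks down, was over 7. This left 6 liver arrays, from tissue kept at 4 °C for 0, 1, 3, 12 or 24 h and at room temperature (RT) for 0 h, and 13 heart arrays, from tissue kept at 4 °C for 1, 3, 6, 12, 24, 48 or 96 h and at RT for 0, 1, 3, 6, 12 or 24 h. The heart array of 4 °C and 0 h, which the study removed for low array quality, was left out. All organs came from male mice of an Il1a knock-out strain on the C57BL6 background, so both tissues carried that deletion, and the age of the mice is not given in the sources used here. Organs were taken right after death, divided into 8 parts and stored, and total RNA of each part was hybridised to a 1-colour array with probes for 1881 mouse miRNAs. The arrays of 1 organ at 1 temperature shared 1 slide and were parts of 1 organ, so animal, slide and storage temperature cannot be told apart within a tissue. Each slide held 1 tissue only, so the difference between the tissues also holds any difference between slides, and between animals where these differed. The p-values over arrays measure the spread between parts of few organs. Of the liver arrays, 5 came from the 4 °C slide and 1 from the RT slide, against 7 and 6 heart arrays.

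A miRNA is a short RNA that is cut from a hairpin precursor and guides a silencing complex to target mRNAs, mostly through its seed, the stretch of bases 2 to 8. A hairpin can give a mature miRNA from its 5p arm, its 3p arm or both. Liver is built mainly of hepatocytes, in which miR-122 is by far the best known miRNA, and which also express miR-192, miR-194, miR-148a and miR-802. Heart muscle cells express the muscle miRNAs miR-1 and miR-133, together with miR-208a and miR-499, which lie within myosin heavy chain genes. Both organs also hold blood, vessels and connective tissue, each with miRNAs of its own.

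The mature sequences of the tissue miRNAs on which the comparison turns are given from RefSeq on mouse GRCm38.p6, 5′ to 3′, with the seed in capitals. The liver set was miR-192-5p (chr19:6264857-6264877, plus strand), miR-215-5p, which has the same seed, UGACCUA (chr1:185313610-185313630, plus strand), miR-194-5p, encoded both beside miR-192 (chr19:6264658-6264679, plus strand) and beside miR-215 (chr1:185313325-185313346, plus strand), miR-802-5p (chr16:93369737-93369758, plus strand) and miR-148a-3p (chr6:51269829-51269850, minus strand).
miR-192-5p: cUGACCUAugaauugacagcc
miR-215-5p: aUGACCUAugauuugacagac
miR-194-5p: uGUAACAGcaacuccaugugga
miR-802-5p: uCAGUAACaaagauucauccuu
miR-148a-3p: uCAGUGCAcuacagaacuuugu

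The heart set was miR-133b-3p (chr1:20682834-20682855, plus strand), its skeletal muscle neighbour miR-206-3p (chr1:20679055-20679076, plus strand), miR-208a-3p (chr14:54949072-54949093, minus strand) and miR-208b-3p (chr14:54975710-54975731, minus strand), which share the seed UAAGACG, and miR-499-5p (chr2:155622893-155622913, plus strand). These sequences show which of the miRNAs measured by separate probes below share a seed. miR-122, miR-1a and miR-133a are named without a sequence.
miR-133b-3p: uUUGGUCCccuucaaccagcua
miR-206-3p: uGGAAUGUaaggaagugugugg
miR-208a-3p: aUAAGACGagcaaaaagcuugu
miR-208b-3p: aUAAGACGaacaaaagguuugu
miR-499-5p: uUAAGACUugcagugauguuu

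Levels are the deposited values after variance stabilising normalization (VSN), on a log2 scale on which a step of 1 is close to a doubling for bright probes. A miRNA is called detected on an array where the scanner software marked it so, and the lowest detected level was 1.21 to 1.79 depending on the array. The summed signal of detected miRNAs was 153088 to 359798 per liver array and 229565 to 409816 per heart array, and no miRNA spot was saturated. Each array carried 30 spots per miRNA, and precision is limited by array number. The liver array of 4 °C and 0 h stood apart although its RIN of 9.1 was the highest of the liver arrays: 268 miRNAs were detected on it, and its median level over the 202 miRNAs detected on all 19 arrays was 4.61, against 5.56 to 6.23 on the other liver arrays and 6.04 to 6.92 on the heart arrays. The median SD between liver arrays over these miRNAs was 0.753 with it and 0.414 without it, against 0.308 in heart.

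**Figure D1:**
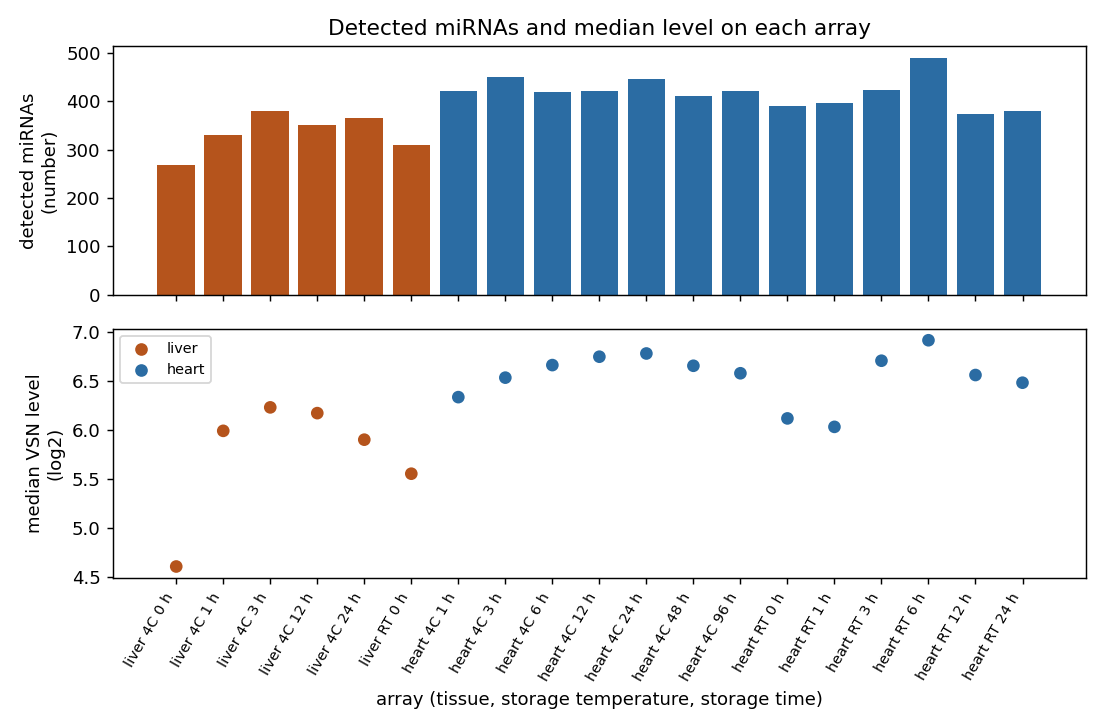
Number of detected miRNAs (upper panel) and median VSN level (log2) of the 202 miRNAs detected on all 19 arrays (lower panel), each point 1 array of intact liver or intact heart. The liver array of 4 °C and 0 h is lowest in both panels, with 268 miRNAs and a median of 4.61.

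Fewer miRNAs were detected in liver than in heart. The liver arrays held 268, 330, 381, 352 and 365 detected miRNAs after 0, 1, 3, 12 and 24 h at 4 °C and 310 after 0 h at RT, and the heart arrays held 374 to 490. Only the liver array of 4 °C and 3 h reached into the range of heart. The mean was 334 ± 41.1 (SD, n = 6) in liver and 419 ± 31.1 (SD, n = 13) in heart, a difference of -84.7 (exact permutation test, two-sided p = 0.000111). Leaving out each array in turn gave -94.1 to -71.5. All 19 arrays detected the same 202 miRNAs, and 1296 of the 1881 were detected on none of them. Detection on at least 1 of 6 liver arrays and on no heart array was seen for 41 miRNAs. Detection on at least 1 of 13 heart arrays and on no liver array, easier to meet with more arrays, was seen for 129. The strictest form of this difference, all 6 liver arrays and no heart array, held for 4 miRNAs, which were miR-122-3p, miR-192-3p, miR-21a-3p and miR-802-5p. All 13 heart arrays and no liver array detected 24 miRNAs, among them miR-1a-3p, both arms of miR-133a, miR-133b-3p, miR-208a-3p and miR-499-5p.

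The labelled tissues were borne out by their markers. miR-122-5p, which regulates lipid metabolism in hepatocytes, had a lowest, median and highest level of 12.67, 14.83 and 15.36 on the liver arrays and of 5.06, 6.67 and 7.38 on the heart arrays. The groups lay far apart, and the lowest liver value was that of the array of 4 °C and 0 h. The fitted difference was 8.12 ± 0.396 (SE; 95% confidence interval 7.30 to 8.94) on the log2 scale, 278-fold higher in liver (157 to 491), with a Benjamini-Hochberg adjusted p of 5.49e-14 in limma. In 14 intact brain arrays of the same study the mean level was 2.81.

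miR-1a-3p, which acts in the differentiation of striated muscle, had levels of 14.13, 14.46 and 14.93 on the heart arrays and was detected on none of the 6 liver arrays. For a miRNA undetected throughout a tissue only a bound can be given, which sets the mean of the bright tissue against the mean, over the arrays of the other tissue, of the lowest detected level of the array or of the miRNA's own value where that was higher. On this basis miR-1a-3p was at least 7243-fold higher in heart. Its adjusted p in limma (5.72e-16) belongs to the fitted difference, which uses the liver values below detection, and does not test the bound. The same holds for every adjusted p printed with a bound below. The intact brain arrays gave it a mean level of 5.71, detected on 14 of 14.

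**Figure D2:**
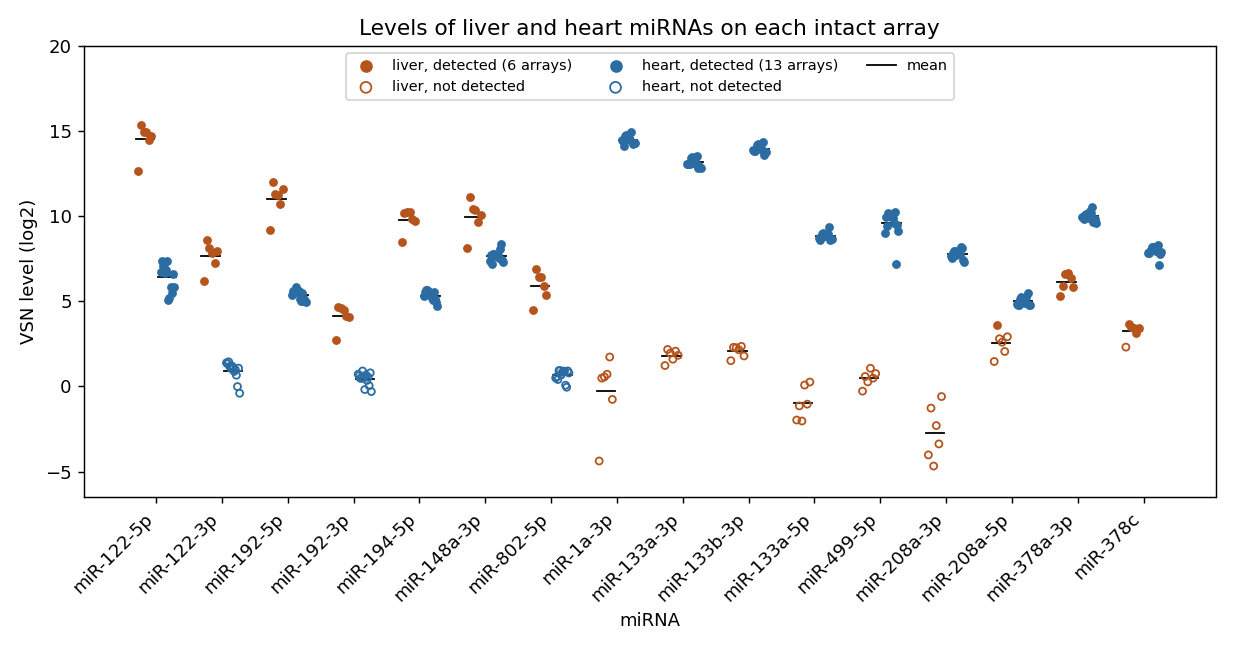
VSN level (log2) of 16 liver and heart miRNAs on each of the 6 liver and 13 heart arrays, with filled points for detected, open points for not detected and bars for the mean. miR-122-5p lies between 12.67 and 15.36 in liver and between 5.06 and 7.38 in heart, and miR-1a-3p is detected on the heart arrays alone.

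The whole profiles divided by tissue as well. Pearson's r between arrays, across the 461 miRNAs detected on at least 5 of the 19 arrays, was 0.875 to 0.987 between liver arrays (15 pairs), 0.930 to 0.993 between heart arrays (78 pairs) and 0.656 to 0.753 between a liver and a heart array (78 pairs). These values describe likeness across miRNAs, which are not replicates. Of the 461 miRNAs, 221 (47.9%) passed an adjusted p of 0.05 with a difference of at least 2-fold, 27 of them higher in liver (5.86%) and 194 higher in heart (42.1%). Without adjustment, 318 had a p below 0.05. The arrays of the tissues did not overlap at all for 133 of the 461 miRNAs (28.9%), among them 14 of the 27 and 113 of the 194. When the arrays of each slide were first averaged, 2 slides against 2, the counts were 26 and 171, of which 26 and 168 were shared.

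The lean of these calls to heart depended on the scaling. The detection filter was also unequal, as a miRNA of heart alone passed on 5 of 13 arrays and one of liver alone needed 5 of 6. Among the calls, 37 for heart were undetected in liver and 9 for liver were undetected in heart. With no filter, 83 of 1881 miRNAs were called for liver and 295 for heart, with a median difference of 0.15. The median difference, liver minus heart, was -0.78 over the 461 miRNAs and -0.75 over the 202 detected on every array. After each array was centred on the median of those 202, a step chosen after seeing the data, the median difference was 0.03, and 89 miRNAs were higher in liver (19.3%) and 88 higher in heart (19.1%). All 27 liver calls and 88 of the 194 heart calls were kept by centring. Other scalings of the scanner signals gave 76 and 101 (75th percentile of the miRNAs detected on all arrays), 36 and 159 (75th percentile of all miRNAs), 79 and 102 (quantile), 21 and 274 (no scaling) and 40 and 32 (normexp background correction). Calls made under VSN and under all 5 of these numbered 19 for liver and 30 for heart. Normexp turned the direction of 114 of the 194 heart calls and quantile normalization that of 11, and no scaling turned a liver call. The median difference over the 461 was 0.65 under normexp and -0.12 under quantile normalization, against -0.78 under VSN. Turns towards liver under normexp, here and below, are to be read against that median. Each list below is therefore given with its count after centring as well. These counts are to be read against the shares over all 461 tested, which were 42.1% higher in heart under VSN and 19.1% after centring, and 5.86% and 19.3% higher in liver. In any list, members detected in 1 tissue alone passed the filter through that tissue, and their calls carry no weight beyond the single values. Without the liver array of 4 °C and 0 h there were 31 liver and 172 heart calls, of which 27 and 167 were shared, and the median difference was -0.71.

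**Figure D3:**
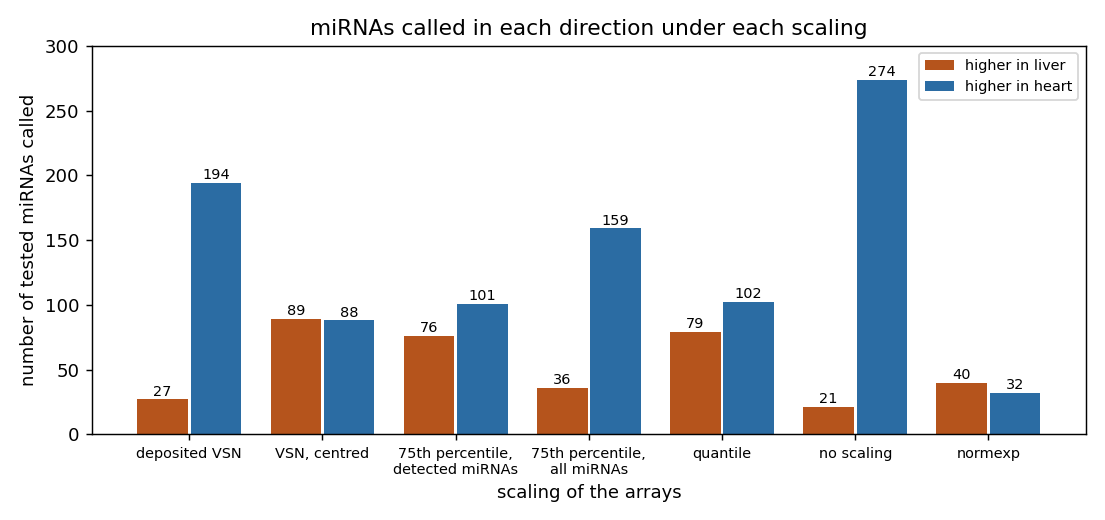
Number of miRNAs called higher in liver or higher in heart among the 461 tested, under the deposited VSN values and under other scalings of the same arrays. The split is 27 and 194 under VSN, 89 and 88 after centring, 40 and 32 under normexp and 21 and 274 with no scaling.

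**Figure D4:**
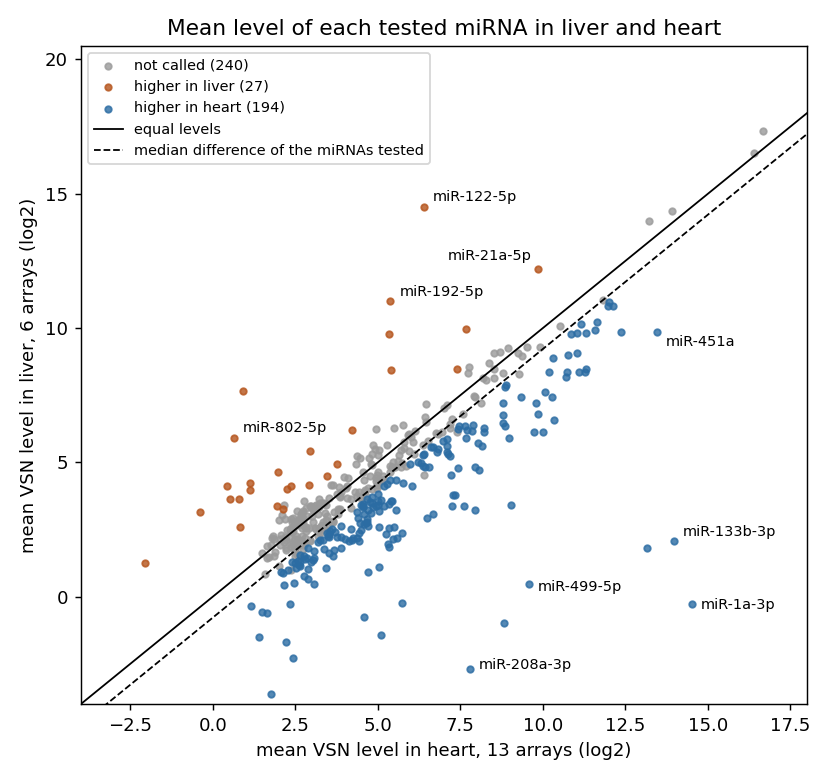
Mean VSN level (log2) of each of the 461 tested miRNAs in heart (13 arrays, x axis) and in liver (6 arrays, y axis), coloured by call. The solid line marks equal levels and the dashed line the median difference of -0.78, below which all 194 heart calls lie and around which the calls split 89 and 88 after centring.

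Hepatocyte miRNAs were higher in liver. Of 13 listed, 7 could be tested and all 7 were called for liver, and the same 7 after centring, with no reversal under any scaling. With the 3 undetected in heart set at their bounds, the median difference was 4.48. Of the other 6, miR-194-2-3p was detected on 4 liver arrays and no heart array, at least 2.11-fold higher in liver, miR-148a-5p on 1 liver array, and 4, among them miR-215-5p, on none of the 19. The detection filter favours a difference in a miRNA that reached it through 1 tissue alone, so these counts carry no weight beyond the single values. The summed level of the list, on the linear scale, was 7866 to 50153 on the liver arrays and 280 to 488 on the heart arrays.

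The passenger arm miR-122-3p had levels of 6.19, 7.90 and 8.58 in liver and was undetected in heart, at least 73.5-fold higher in liver (limma, adjusted p = 1.54e-14). miR-192-5p, expressed in hepatocytes and in gut and kidney epithelium, stood at 9.20, 11.28 and 11.99 in liver and 4.94, 5.50 and 5.82 in heart, 49.4-fold higher in liver (difference 5.63 ± 0.28, adjusted p = 7.08e-14). Its cluster partner miR-194-5p stood at 8.47, 10.02 and 10.27 against 4.72, 5.37 and 5.69, 22.2-fold higher in liver (4.47 ± 0.227, adjusted p = 9.9e-14). Neither overlapped between the tissues, whereas miR-215-5p, which has the seed of miR-192-5p, was detected on no array of either. miR-802-5p, a liver and pancreas miRNA tied to glucose metabolism, had levels of 4.46, 6.17 and 6.91 in liver and was undetected in heart, at least 22.3-fold higher in liver (adjusted p = 1.07e-13). miR-148a-3p, a repressor of lipid genes, stood at 8.11, 10.19 and 11.12 in liver and 7.21, 7.71 and 8.38 in heart, 4.86-fold higher in liver (2.28 ± 0.295, adjusted p = 6.63e-07). Its ranges overlapped through the liver array of 4 °C and 0 h, the only one below the highest heart value.

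Within heart, miR-122-5p differed between the slides. It was 6.67 to 7.38 on the 7 arrays of the 4 °C slide and 5.06 to 6.63 on the 6 of the RT slide, a difference of 1.35 ± 0.232 (limma, adjusted p = 0.00202). It was 1 of 3 miRNAs called between the heart slides out of 461 (0.651%), all higher on the 4 °C slide, while 90 had an unadjusted p below 0.05. The others were miR-669c-3p, from a large cluster within the Sfmbt2 gene (1.14, adjusted p = 1.68e-06), and miR-3095-3p (1.09, adjusted p = 0.000488). miR-192-5p and miR-194-5p were 0.46 and 0.41 higher on the 4 °C slide (adjusted p = 0.0169 and 0.0607), below the 2-fold limit, and miR-148a-3p was -0.12 (adjusted p = 0.802). The median absolute difference between heart slides was 0.195, against 0.962 between the tissues. The lowest liver array lay 5.30 above the highest array of either heart slide for miR-122-5p.

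The miRNAs of heart and striated muscle were higher in heart. Of 18 listed, 11 could be tested and 10 were called for heart (9 after centring, when miR-1a-1-5p was lost), although normexp correction turned 4 of the 10, the low miR-1a-1-5p, miR-208a-5p, miR-208b-3p and miR-499-3p, towards liver. With the 10 undetected in liver set at their bounds, the median difference was -6.12, and the summed linear level was 26 to 41 in liver and 39851 to 66418 in heart. These 10 reached the detection filter through heart alone, so here too the counts carry no weight beyond the single values. Detected on none of the 19 arrays were 7 members, among them miR-206-3p, which marks skeletal muscle and lies beside miR-133b, and miR-208b-5p.

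miR-133b-3p and miR-133a-3p, which restrain proliferation in muscle, had heart levels of 13.61, 13.88 and 14.36, and of 12.85, 13.09 and 13.56. Neither was detected in liver, with bounds of at least 3677-fold (limma, adjusted p = 1.08e-24) and at least 2405-fold (adjusted p = 2.3e-24). The other arm, miR-133a-5p, was at least 144-fold higher in heart, with levels of 8.60, 8.83 and 9.36. All heart arrays lay within 1 unit of each other for these 3 miRNAs.

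Of the miRNAs within myosin genes, miR-208a-3p, from the intron of Myh6, had heart levels of 7.32, 7.83 and 8.21 and was at least 69.5-fold higher in heart (adjusted p = 1.4e-15). miR-208b-3p, from the slow myosin gene Myh7 that the adult mouse heart uses little, was detected on 5 of 13 heart arrays and no liver array, and its bound was at least 1.70-fold. miR-499-5p, from Myh7b, had heart levels of 7.22, 9.89 and 10.23 and was at least 241-fold higher in heart (adjusted p = 7.86e-16). The value of 7.22 came from RT 6 h and the other 12 heart arrays lay between 9.04 and 10.23. miR-499-3p was detected on 8 heart arrays, at least 1.47-fold, and miR-208a-5p, detected on 1 liver array, differed by -2.45 ± 0.225 (adjusted p = 3.57e-09).

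The miR-378 family was higher in heart as a whole. miR-378a lies in an intron of Ppargc1b, a coactivator of mitochondrial genes. Its main arm, miR-378a-3p, had levels of 5.32, 6.15 and 6.65 in liver and 9.60, 9.96 and 10.55 in heart, 14.9-fold higher in heart (difference -3.90 ± 0.19, limma adjusted p = 5.49e-14). Among the paralogues miR-378c differed by -4.72 ± 0.194 (26.3-fold, adjusted p = 3.02e-15), miR-378d by -3.76, miR-378b by -3.58 and the passenger arm miR-378a-5p by -3.53. No array of liver overlapped with heart for any of the 5, and all 5 calls were kept under centring and under each of the other scalings. The family shares most of its sequence, and cross-hybridisation between its probes was not tested.
miR-378b: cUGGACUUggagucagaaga
miR-378c: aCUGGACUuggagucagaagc
miR-378d: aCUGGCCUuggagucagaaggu
They lie at chr11:88352839-88352858 (plus strand), chr14:46954905-46954925 (minus strand) and chr10:126710355-126710376 (minus strand).

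Vessel and stroma miRNAs were higher in heart. Of 11 on the array, 9 could be tested, and all 9 were called for heart (42.1% of all tested) and kept after centring (19.1%), though normexp turned miR-143-5p and miR-214-3p towards liver. The endothelial miR-126a-3p had levels of 8.10, 10.10 and 10.71 in liver and 11.87, 12.35 and 12.73 in heart, without overlap (5.61-fold, difference -2.49 ± 0.262, limma adjusted p = 3.11e-08). miR-143-3p and miR-145a-5p, which are made together in smooth muscle, differed by -3.07 ± 0.258 (adjusted p = 8.36e-10) and -3.87 ± 0.303 (adjusted p = 2.52e-10). The mesenchymal miR-199b-5p differed by -3.38 and miR-214-3p by -1.83. In whole organs, fewer cells of a type and less of the miRNA per cell cannot be told apart.

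Blood cell miRNAs were mixed. Of 16 on the array, 12 could be tested, 9 were called for heart and none for liver (8 for heart after centring), with miR-223-3p turned under quantile normalization and miR-155-5p and miR-486b-3p under normexp. The red cell miRNA miR-451a had levels of 8.51, 10.23 and 10.88 in liver and 12.14, 13.30 and 14.98 in heart (difference -3.59 ± 0.432, limma adjusted p = 2.41e-07). Its cluster partner miR-144-3p differed by -3.07 (adjusted p = 3.96e-06), and both were highest on the heart arrays of 4 °C 6 h and RT 6 h, which stood at 14.98 and 14.94 for miR-451a. miR-486a-5p, found in red cells and in muscle, differed by -5.62 ± 0.275 (49.2-fold, adjusted p = 5.59e-14), and its partner arms miR-486a-3p and miR-486b-3p were detected on heart arrays alone, at least 16.7-fold and 10.8-fold. The lymphocyte miRNA miR-150-5p differed by -3.59 (adjusted p = 4.69e-11). Leucocyte miRNAs were divided: miR-223-3p and miR-155-5p were among the 9 called for heart. In contrast, miR-142a-3p (-0.40, adjusted p = 0.42), miR-142a-5p (-0.71, adjusted p = 0.129) and miR-146a-5p (-0.03, adjusted p = 0.934) passed no test, with ranges that overlapped. The summed linear level of the list was 602 to 3570 in liver and 5932 to 38204 in heart. The part of blood left in the organs in the tissue differences was not tested.

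Among 16 epithelial miRNAs of the miR-200 and miR-183 families, 3 could be tested and 3 were higher in liver, also after centring, with no reversal under any scaling. All 3 passed the detection filter only through the liver arrays, so this count carries no weight beyond the single values. miR-200a-3p and miR-200b-3p, keepers of the epithelial state made from 1 cluster, had levels of 2.50, 4.35 and 5.0 and of 2.47, 3.72 and 4.36 in liver, and differed by 2.86 ± 0.367 and 2.81 ± 0.327 (limma, adjusted p = 6.36e-07 and 1.38e-07). Both were detected on 5 liver arrays, and on 2 and 1 heart arrays. miR-96-5p, of the miR-183 cluster, was detected on 5 liver arrays and no heart array, at least 6.58-fold higher in liver. Of the rest, 10 were detected on none of the 19 arrays. None of 8 pancreas miRNAs, such as miR-375-3p and miR-217-5p, was detected on any of them.

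Of 11 neural miRNAs 4 could be tested. miR-128-3p was higher in heart (-3.39 ± 0.205, limma adjusted p = 2.16e-12, detected on 1 liver array), as was miR-338-3p (-1.05, adjusted p = 0.00549), which was lost after centring and without the liver array of 4 °C and 0 h (-0.71), that of 4 °C and 24 h or the heart array of RT 6 h, and turned under normexp. miR-137-3p was detected on 5 liver arrays and no heart array, at least 4.44-fold higher in liver. miR-219a-5p was not called, and miR-124-3p and miR-9-5p were detected on no liver array and on 1 and 2 heart arrays.

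**Figure D5:**
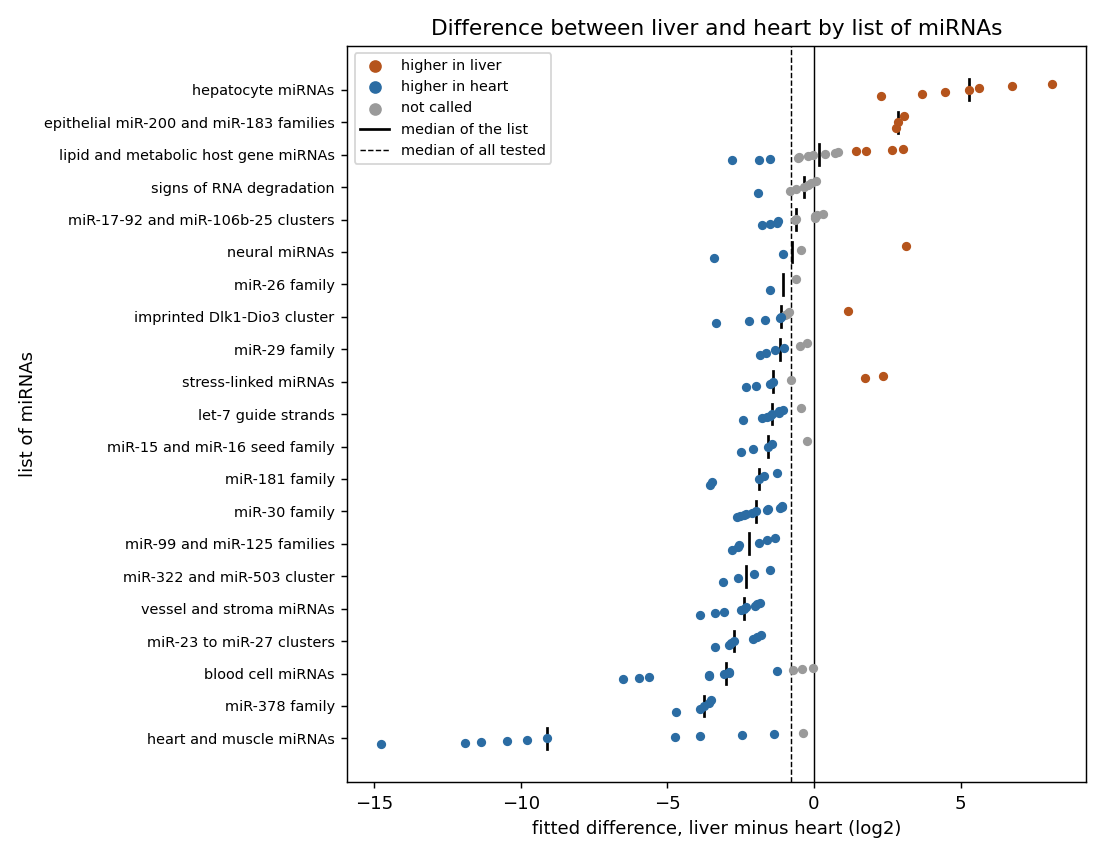
Fitted difference in VSN level (log2, liver minus heart) of each tested member of the miRNA lists, coloured by call, with a bar at the median of each list and a dashed line at the median of all 461 tested, -0.78. Hepatocyte and heart and muscle members lie at opposite ends, where fitted values of miRNAs undetected in 1 tissue are no bounds (median 4.48 and -6.12 with those at their bounds), and 7 of the 8 let-7 calls near the dashed line were lost after centring.

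Stress-linked and lipid-linked miRNAs went both ways. miR-21a-5p, induced by injury in many tissues, had levels of 10.27, 12.43 and 13.50 in liver and 9.43, 9.79 and 10.94 in heart, 5.06-fold higher in liver (2.34 ± 0.328, limma adjusted p = 2.06e-06). The ranges overlapped through the liver array of 4 °C and 0 h and the highest heart array, that of RT 6 h. Its other arm, miR-21a-3p, was at least 2.14-fold higher in liver, and both were also called after centring. Of the 12 miRNAs of the stress list, 7 could be tested, and 4 were higher in heart (2 after centring), among them the hypoxia-induced miR-210-3p (-2.31, adjusted p = 4.55e-08) and the p53 target miR-34a-5p (-1.96, adjusted p = 1.62e-06). Normexp turned miR-210-3p and miR-34b-5p towards liver.

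Of 16 miRNAs linked to lipid metabolism or hosted in metabolic genes, 14 could be tested, with 4 higher in liver and 3 higher in heart (7 and 2 after centring). miR-33-5p, from an intron of the sterol regulator Srebf2, differed by 1.76 ± 0.382 (adjusted p = 0.000444). miR-101b-3p, whose hairpin lies in an intron of Rcl1, stood at 2.64, 4.95 and 5.97 in liver and 1.42, 2.10 and 2.26 in heart (2.65 ± 0.308, adjusted p = 1.38e-07), while its paralogue miR-101a-3p differed by -0.21 (adjusted p = 0.49). miR-103-3p and miR-107-3p, hosted by pantothenate kinase genes, differed by -0.53 and -0.03.

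The miR-193 pair had the same seed, ACUGGCC, and opposite calls. miR-193a-3p had levels of 7.50, 8.58 and 8.89 in liver and 4.56, 5.44 and 5.85 in heart, 8.16-fold higher in liver (3.03 ± 0.204, limma adjusted p = 1.58e-11). miR-193b-3p stood at 2.22, 2.55 and 2.88 in liver, detected on 2 arrays, and 5.09, 5.32 and 5.59 in heart, 6.95-fold higher in heart (-2.80 ± 0.138, adjusted p = 6.11e-14). Neither overlapped between the tissues, and normexp alone turned miR-193b-3p, to 0.06. miR-365-3p, from the cluster of miR-193b (chr16:13449570-13453916, plus strand), was 0.70 higher in liver (adjusted p = 0.00962), below 2-fold, and was called for liver after centring.
miR-193a-3p: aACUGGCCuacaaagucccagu
miR-193b-3p: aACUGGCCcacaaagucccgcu
They lie at chr11:79712009-79712030 and chr16:13449570-13449591, both on the plus strand.

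RefSeq gave a mature sequence for 388 of the 461 tested miRNAs (84.2%). Of 30 groups of tested miRNAs that shared a seed, 2 held calls in both directions under VSN. The other was the seed CAGUGCA, with miR-148a-3p higher in liver, miR-152-3p higher in heart (-1.51, limma adjusted p = 5.32e-05, lost after centring) and miR-148b-3p not called (-0.51, adjusted p = 0.0568). Under VSN, where 5.86% of all tested were called for liver, none of 36 clusters of hairpins within 10 kb on 1 strand held both directions. After centring the cluster of miR-193b did, with miR-193b-3p called for heart and miR-365-3p for liver. The other clusters were not counted after centring. All 3 tested miRNAs of the miR-192 and miR-194 cluster (chr19:6264658-6264921) were higher in liver, as were both of the miR-200 cluster (chr4:156054911-156055706). All 3 of the miR-144 and miR-451a cluster (chr11:78073010-78073207) were higher in heart, and so were all 4 of the miR-23a cluster (chr8:84208563-84208896).

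Of 55 hairpins with both arms tested, 43 had differences of the same sign (36 after centring), where 73.3% of all 461 differences were below 0. In the 22 hairpins with both arms called under VSN the calls were the same, where 194 of all 221 calls were for heart. These pairs were not counted after centring. The widest gap among hairpins with 1 arm called was in miR-149, singled out after its values were seen, where miR-149-5p stood at 2.85, 3.43 and 3.79 in liver and 7.0, 7.68 and 7.96 in heart (18.9-fold higher in heart, limma adjusted p = 3.84e-15), and miR-149-3p differed by -0.10 (adjusted p = 0.617).

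In several broad miRNA families, expressed in most tissues, calls moved with the scaling. This was not particular to them, as centring kept 88 of all 194 heart calls. Of 9 let-7 guide strands, which restrain proliferation, 8 were higher in heart under VSN and 1 after centring, let-7i-5p (-2.43 ± 0.257, limma adjusted p = 3.39e-08), and quantile normalization turned let-7a, let-7b, let-7c and let-7f towards liver. Of the miR-30 family, 11 of 11 were higher in heart and 6 after centring, with miR-30e-5p (-2.53), miR-30b-5p (-2.38) and miR-30d-5p (-2.34) kept under all scalings, miR-30a-5p turned under quantile and 4 passenger arms turned under normexp. Of 7 members of the miR-29 family, repressors of collagen genes, 6 could be tested, 4 were higher in heart and 1 after centring (miR-29c-5p, turned under normexp), and quantile normalization turned miR-29a-3p and miR-29b-3p. The call of miR-29b-3p (2.01-fold) was lost without the liver array of 4 °C and 0 h and without any of 8 other arrays. Without that liver array 5 let-7 strands and 8 miR-30 members were called, as let-7a-5p (-0.81), let-7b-5p (-0.88), let-7f-5p (-0.66), miR-30a-5p (-0.86), miR-30a-3p (-0.84) and miR-30c-2-3p (-0.93) fell below 2-fold. Of the miR-26 family 2 of 5 could be tested, and miR-26a-5p was higher in heart (-1.50) but not after centring. The cell cycle clusters miR-17-92 and miR-106b-25 had 10 of 15 tested, with 4 higher in heart under VSN, a share near the 42.1% of all tested, and, after centring, none in heart and miR-19b-3p in liver.

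In other families the share of heart calls kept after centring ran from all to fewer than those lost. The miR-23a and miR-23b clusters had 7 of 11 members tested and 7 higher in heart, also after centring, with miR-23a-3p (-2.90), miR-27a-3p (-2.84) and miR-24-3p (-2.72) kept under all scalings and miR-24-1-5p turned under normexp. Of the miR-99 and miR-125 families, 6 of 11 could be tested, 6 were higher in heart and 4 after centring, led by miR-125b-5p (-2.81 ± 0.243) and miR-99a-5p (-2.59 ± 0.241), whereas normexp turned miR-99b-5p and both arms of miR-125a. Of 10 miR-181 members 5 were tested, 5 were higher in heart and 3 after centring, with miR-181a-5p at -3.56 and miR-181c-5p undetected in liver and at least 9.94-fold higher in heart, while miR-181b-5p, miR-181d-5p and miR-181a-1-3p turned under normexp. In the miR-15 and miR-16 family, 5 of 10 were tested, 4 were higher in heart and 2 after centring, miR-195a-5p (-2.50) and miR-497a-5p (-2.08), which lie side by side. The miR-322 and miR-503 cluster had 4 of 11 tested and 4 higher in heart (3 after centring), led by miR-322-5p (-3.11 ± 0.316), while the other 3 turned under normexp. Its members miR-322-3p and miR-503-5p were detected on no liver array and passed the filter through heart alone. Of 52 miRNAs on the array from the imprinted Dlk1-Dio3 cluster, 33 were detected on none of the 19 arrays and 9 could be tested: 5 were higher in heart (2 after centring, 4 turned under normexp) and miR-487b-3p higher in liver (1.16, adjusted p = 0.00789). Without the liver array of 4 °C and 1 h 3 were higher in heart, and without that of 4 °C and 3 h miR-487b-3p differed by 0.98, below 2-fold.

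Further miRNAs led the calls without belonging to a tissue list. In liver these were miR-203-3p, an epithelial miRNA (3.68, 5.81 and 5.99 against 2.46, 2.69 and 3.69, difference 2.50, limma adjusted p = 1.23e-07), and miR-31-5p (5.04, 6.58 and 6.83 against 3.73, 4.13 and 5.77, difference 2.0, adjusted p = 2.84e-06). The liver array of 4 °C and 0 h was the lowest of liver for both. In heart they were miR-490-3p, from an intron of the muscarinic receptor gene Chrm2 (4.15, 4.43 and 6.16 in heart, undetected in liver, at least 7.58-fold), and miR-327 (1.21, 1.79 and 2.17 in heart, undetected in liver, at least 1.07-fold). Normexp turned both towards liver, and miR-327 was called under none of the 5 other scalings.

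The tissues were alike within set limits for 57 of the 202 miRNAs detected on all 19 arrays (88 after centring). For these the 95% confidence interval of the difference lay wholly inside a 2-fold change in either direction. Other miRNAs were not considered here. The narrowest intervals were those of miR-139-3p (-0.45, interval -0.74 to -0.16), miR-7022-3p (0.25, -0.06 to 0.55), miR-2137 (-0.05, -0.39 to 0.30), miR-8105 (-0.25, -0.61 to 0.10) and miR-1839-3p (0.11, -0.24 to 0.47). miR-7022-3p was called for liver after centring, so its place here held under VSN. Of 8 miRNAs listed as signs of RNA degradation, 7 could be tested, 1 was higher in heart, miR-3473f (-1.90, limma adjusted p = 0.00822, lost after centring and turned under normexp), and none in liver. Without the liver array of 4 °C and 0 h miR-3473f was not called (adjusted p = 0.0562), and without that of 4 °C and 24 h 2 of the list were. Among the 202 miRNAs detected on all 19 arrays, 9 were higher in liver and 83 in heart.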

How the data were processed

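Deposited per the labels were 1-colour miRNA arrays (Agilent, mouse release 21.0) with, per array, scanner intensity values and detection marks (a score of 0 or 1), and a matrix of log2 values that the authors made from background-corrected total intensity per miRNA by VSN. Array values of this matrix and of the scanner intensity gave the same order of miRNAs. Members and lists were chosen with earlier results of these data known. miRNAs detected on at least 5 of the 19 arrays were fitted with limma 3.58.1 in R 4.3.3 (tissue, slide as a random block with correlation 0.00385, eBayes), with Benjamini-Hochberg adjustment over the 461 tested, and called at an adjusted p of 0.05 and 2-fold. Intervals are at 95%. The fit was tested on simulated data. Tables were made in Python 3.11.15 with pandas 2.3.3 and numpy 2.4.6. Named were the 2 markers, the called hepatocyte and heart members, up to 4 of the largest called differences of each other list, the 12 largest called differences per direction among miRNAs detected on every array of the higher tissue, and the 5 narrowest alike intervals (89 called and 5 alike). Other list members in the text were chosen after their values were seen. Alternatives covered scaling (normexp with an offset of 50 on median spot signals), detection filters, the study's Wilcoxon-Mann-Whitney (WMW) test, slide means, matched storage, RIN as a covariate and leaving out arrays. The labels give 12 h where the methods name another time. The methods state that liver and heart at a temperature were of the same animal, whereas the RIN values of the arrays equalled those listed for different animals, so the pairing of the organs was not used.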

Additional observations from a re-analysis of the deposited data

Results flagged for a closer look

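In 18 of 94 miRNAs examined, the lowest of the 6 liver arrays lay farther from its neighbour than Dixon's limit allows, and in each of the 18 it was the array of 4 °C and 0 h. Chance alone marks about 1 in 20 independent groups. The miRNAs were read on the same 6 arrays and are not independent, so 18 of 94 cannot be set against that rate. The levels on that array were 12.67 for miR-122-5p, 8.47 for miR-194-5p and 2.72 for miR-192-3p among the hepatocyte miRNAs. They were 8.10 for miR-126a-3p, 6.86 for miR-125b-5p, 5.65 for miR-99a-5p, 3.90 for miR-100-5p, 6.81 for miR-23a-3p and 1.23 for miR-24-2-5p. In the let-7, miR-29, miR-15 and miR-25 groups they were 7.25 for let-7d-5p, 2.65 for miR-98-5p, 9.40 for miR-29a-3p, 8.42 for miR-29c-3p, 5.63 for miR-15b-5p, 7.28 for miR-16-5p and 4.25 for miR-25-3p. The remaining values were 1.08 for miR-128-3p and 3.68 for miR-203-3p. The array held 268 detected miRNAs and a median level of 4.61, and its low levels fell on miRNAs of liver and of heart alike.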

How the results depend on the processing

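Of 89 named and called miRNAs, all kept direction and call with RIN as a covariate, on the 4 °C slides alone and by the WMW test with adjustment. Direction was kept but the call was lost for 8 with matched storage and 6 with slide means. Adding the heart array of 4 °C and 0 h lost 4 in the same way. With matched storage, 5 arrays per tissue, 139 miRNAs were called for heart in place of 194. The number of miRNAs called in either direction (221) became 72 under normexp and 378 with no detection filter, which adds 1420 miRNAs detected on few or no arrays. The 27 liver calls became 76 (75th percentile of miRNAs detected on all arrays), 79 (quantile), 89 (centring, chosen after seeing the data), 83 (no filter), 17 (detected on every array of a tissue, with fewer miRNAs tested) and 42 (adjusted p alone). The 194 heart calls became 101, 102, 88 and 295 under the first 4 of these and 32 under normexp. Heart slides gave 6 calls with matched storage and 7 under the 75th percentile, in place of 3. The 57 alike miRNAs became 31 with slide means, 36 without scaling, 138 under normexp and 88 after centring. The cause of these moves was not tested. Leaving out each array in turn gave 195 to 233 calls in all, 24 to 31 in liver, 171 to 207 in heart, 45 to 64 alike, 43 to 46 hairpins with arms of the same sign, and a difference of -94.1 to -71.5 detected miRNAs.

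Of all 194 heart calls, 114 turned towards liver under normexp and 11 under quantile normalization, and of all 27 liver calls none turned under any scaling. Among the 89 named and called miRNAs, 22 turned under normexp, to 0.58 (miR-127-3p), 0.60 (miR-17-5p), 0.35 (miR-181b-5p), 0.44 (miR-181d-5p), 0.0649 (miR-193b-3p), 0.62 (miR-1a-1-5p), 0.18 (miR-208a-5p), 0.59 (miR-208b-3p), 0.0447 (miR-210-3p), 0.20 (miR-29c-5p), 0.23 (miR-301a-3p), 0.76 (miR-322-3p), 0.72 (miR-327), 0.42 (miR-338-3p), 0.22 (miR-3473f), 0.61 (miR-376a-3p), 0.39 (miR-450a-5p), 0.0408 (miR-486b-3p), 0.19 (miR-490-3p), 0.62 (miR-499-3p), 0.57 (miR-503-5p) and 0.16 (miR-99b-5p), and 2 under quantile normalization, to 0.35 (miR-29a-3p) and 0.45 (miR-29b-3p). Signal over background limits the low probes. Bounds were given for miRNAs undetected throughout a tissue, and differences of miRNAs detected on some arrays of a tissue rest in part on values at background.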

Other observations

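The heart array of RT 6 h differed from the other 12 heart arrays in single miRNAs, singled out after their values were seen. Of 330 miRNAs detected on all 13 heart arrays, 7 lay more than 1 log2 unit beyond the range of the others on that array, against 0 to 2 on any other heart array. miR-499-5p was 7.22 there and 9.04 to 10.23 elsewhere in heart, miR-490-3p was 6.16 against 4.15 to 4.82, miR-218-5p was 7.74 against 4.02 to 6.63, miR-652-3p was 7.66 against 5.59 to 6.45, and miR-31-5p was 5.77 against 3.73 to 4.46. miR-21a-5p, at 10.94, was also highest on this array, with 9.43 to 10.21 elsewhere. Each array held a different part of the divided organ.

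Base composition is given as a description, with no test. The median GC content was 42.5% for the 24 liver calls with a RefSeq sequence, 50% for 160 heart calls and 57.4% for 204 miRNAs without a call, and 52.3%, 50% and 54.6% when the calls were made after centring. miRNAs numbered 3000 or higher, which were named later, made up 1 of 27 liver calls (3.70%), 52 of 194 heart calls (26.8%) and 164 of the 461 tested (35.6%).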
